A study of Mus musculus with 9 samples.

Results

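Messenger RNA of cell cycle and DNA replication genes was followed in cultured mouse dendritic cells, a type of antigen-presenting cell, after DNA from tumor cells had been delivered into them. The set holds 40 genes listed by symbol, from the cyclins that start the cycle to the motors that part the chromosomes. A gene was measured through the probe sets that carry its symbol alone in the platform annotation, and the brightest of these by mean log2(signal + 16) over the 9 arrays stood for it. Of the 40 genes, 39 had such a probe set and 38 passed the filter on low signals, out of 12586 genes tested. Ccnb1, which encodes cyclin B1, had no probe set of its own symbol alone and was not analysed here. Tyms, which encodes thymidylate synthase, had 4 probe sets whose signals lay between 0.9 and 49.9 on all arrays, with means under the filter of 5.67 on the log2 scale.

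The cells were grown from bone marrow of 129/SvEv mice with the growth factor GM-CSF for 9 to 12 days, and the DNA was given with a lipid transfection reagent for 7 h. Bone marrow cultures of this kind hold several myeloid cell types, and each array read the whole culture. The first group is STING knockout cells given purified tumor-cell DNA, the next is wild-type cells given the same DNA, and the last is wild-type cells left unstimulated in media. Each group has 3 arrays, numbered 1 to 3 after the sample titles, which leave the first of each group unmarked. STING is the adaptor that relays the sensing of cytosolic DNA to the interferon genes. Reagent-only cells and unstimulated knockout cells were not analysed here, so what the DNA did and what the reagent did cannot be told apart. Nothing in the labels ties each array to its own mouse or culture, so the p-values reflect the spread between these samples alone, which may be technical.

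A cell that enters the cycle first makes D-type cyclins, which with their kinases phosphorylate the retinoblastoma protein and so free the E2F transcription factors. E2F factors switch on the genes of DNA synthesis, among them the Mcm genes of the replicative helicase and the enzymes that make nucleotides. Later in the cycle the genes of the G2 phase and of mitosis are switched on through promoter elements known as CHR and CCAAT, and in resting cells the same genes are held off by a complex that contains retinoblastoma-like proteins. In dendritic cell cultures the dividing cells are mostly precursors that still respond to GM-CSF, and mature dendritic cells divide little.

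The promoters of 5 of the genes are shown because their mRNAs moved in opposite directions or because they carry the elements named above. A RefSeq promoter (GRCm38.p6, 250 bases before to 50 bases after the gene start) was found for 31 of the 40 genes, with 34 promoters in all. Capitals mark every match, on either strand, to an E2F element (TTTCGCGC, TTTGGCGC, TTTCCCGC or TTTGCCGC), to the CHR (TTTGAA) or to CCAAT. No matches overlapped in these windows.
Cdt1, chr8:122567765-122568064, plus strand: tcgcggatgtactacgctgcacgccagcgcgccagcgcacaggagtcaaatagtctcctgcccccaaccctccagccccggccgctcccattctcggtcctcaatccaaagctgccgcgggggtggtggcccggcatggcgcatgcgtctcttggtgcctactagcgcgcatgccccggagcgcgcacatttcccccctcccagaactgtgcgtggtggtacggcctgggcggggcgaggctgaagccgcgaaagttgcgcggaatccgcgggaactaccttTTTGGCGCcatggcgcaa
Mcm3, chr1:20820263-20820562, minus strand: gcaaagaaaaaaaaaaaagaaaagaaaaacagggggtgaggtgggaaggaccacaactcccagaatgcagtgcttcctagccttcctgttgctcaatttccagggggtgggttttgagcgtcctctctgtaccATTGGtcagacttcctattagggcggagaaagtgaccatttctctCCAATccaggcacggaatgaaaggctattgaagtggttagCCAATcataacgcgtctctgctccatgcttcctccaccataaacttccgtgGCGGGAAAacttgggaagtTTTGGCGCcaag
Cdc20, chr4:118437294-118437593, minus strand: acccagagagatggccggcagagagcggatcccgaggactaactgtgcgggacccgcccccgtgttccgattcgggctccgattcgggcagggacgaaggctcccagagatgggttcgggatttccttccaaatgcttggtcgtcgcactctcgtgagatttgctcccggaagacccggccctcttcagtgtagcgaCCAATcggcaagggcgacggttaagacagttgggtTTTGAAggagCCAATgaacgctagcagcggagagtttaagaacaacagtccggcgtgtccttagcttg
Cdk1, chr10:69352863-69353162, minus strand: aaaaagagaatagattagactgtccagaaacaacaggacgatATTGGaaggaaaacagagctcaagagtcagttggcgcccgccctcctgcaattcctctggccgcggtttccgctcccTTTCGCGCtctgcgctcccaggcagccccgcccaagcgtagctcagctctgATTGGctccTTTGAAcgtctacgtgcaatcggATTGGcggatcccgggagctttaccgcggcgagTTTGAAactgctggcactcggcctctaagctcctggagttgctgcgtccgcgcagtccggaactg
Top2a, chr11:99024140-99024439, minus strand: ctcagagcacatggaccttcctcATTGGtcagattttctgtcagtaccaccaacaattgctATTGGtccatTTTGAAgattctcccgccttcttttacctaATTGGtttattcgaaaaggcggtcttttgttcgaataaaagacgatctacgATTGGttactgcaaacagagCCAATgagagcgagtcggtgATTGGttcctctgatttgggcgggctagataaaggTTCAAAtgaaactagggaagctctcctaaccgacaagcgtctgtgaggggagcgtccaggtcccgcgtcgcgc
The windows of Cdt1 and Mcm3 both hold the letters TTTGGCGC, at bases 33 and 39 after the gene start, although one mRNA rose and the other fell with DNA in wild-type cells. Over the set, 8 of 34 promoters (23.5%) held an E2F element, against 2.26% of all 32851 RefSeq promoters of this length. The CHR was in 12 (35.3%, against 17.9% of all) and CCAAT in 25 (73.5%, against 37.4% of all). Cdk1 carried all 3 kinds, and Top2a carried CHR and CCAAT. A match is a description of the letters and not evidence of binding.

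Values per array are MAS5 signals on a linear scale, in the order of replicate numbers 1, 2 and 3, and all arrays had been scaled to the same trimmed mean of 499.8. Differences are of log2(signal + 16), with their SE after ±, and a lone value after a difference in parentheses is its limma adjusted p over all genes. Sting1, which encodes STING, read 246, 336 and 327 in STING knockout cells with DNA, 2258, 1061 and 1158 in DNA-treated wild-type cells and 1524, 1081 and 646 in wild-type cells in media. Set against wild-type cells with DNA, the knockout difference was -2.17 ± 0.35 on the log2 scale (limma adjusted p = 0.0016, SE, 3 arrays per group). Of 12 dendritic cell markers 11 passed the filter, and the summed signal of all 12 was 84718 to 105253, 106727 to 123590 and 102749 to 109394 in STING knockout cells with DNA, wild-type cells with DNA and wild-type cells in media. No marker of T and NK cells passed the filter, out of 6 with a probe set.

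Wild-type cells given DNA had more mRNA of the cyclin genes Ccnd1 and Ccnd2 and of the licensing factor gene Cdt1 than STING knockout cells given DNA or wild-type cells in media. Means of 28 of the 38 genes were lower in wild-type cells with DNA than in media (61.2% of all genes were), and 17 were without media array 2. Means of 31 were higher in the knockout than in wild-type cells under DNA (61.7% of all genes). Between wild-type cells with DNA and in media, 4 of the 38 genes rose (Ccnd1, Ccnd2, Cdt1 and Pcna) and 2 fell (E2f1 and Mcm3) at an adjusted p under 0.05, where 9.94% of all genes rose and 23.6% fell. With the replicate number as a block, 5 rose and 16 fell, against 13.2% and 31.6% of all genes. Between STING knockout and wild-type cells with DNA, 3 genes were higher in the knockout (E2f1, E2f2 and Cdc20) and 3 lower (Ccnd1, Ccnd2 and Cdt1), against 21.8% and 9.73% of all genes. With the block 22 were higher and 4 lower, against 29.9% and 13% of all genes. The 38 genes had a median log2 difference of -0.74 with DNA in wild-type cells (all genes -0.20) and of 0.90 in the knockout against wild type under DNA (all genes 0.20). These comparisons share the wild-type DNA arrays, so their opposite signs are not independent of each other. Over all genes, 1251 rose and 2973 fell with DNA, against 1371 and 2207 with quantile normalization and 2038 and 1451 with median centring of each array, which moved the median of all genes to 0.11. In the knockout 2746 were higher and 1224 lower, against 2140 and 1361 with quantile normalization and 1456 and 1805 with median centring (median -0.06). With median centring, 5 of the 38 genes rose and 0 fell with DNA by limma, or 7 and 8 with the block. At an unadjusted p under 0.05, 2 fell without the block. In the knockout 2 were higher and 4 lower, or 19 and 7 with the block. Over all genes with this centring, 16.2% rose and 11.5% fell with DNA, or 22.1% and 17.4% with the block. In the knockout 11.6% of all genes were higher and 14.3% lower, or 17.9% and 19.6% with the block. In bulk arrays, fewer cells of a dividing type and less RNA per cell cannot be told apart.

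The replicate block matters here because arrays of the same number deviated together. In 30 of the 38 genes (78.9%) the array numbered 2 was the highest of its group in all 3 groups, against 10.6% of all genes. The median excess of array 2 over the mean of arrays 1 and 3 was 1.21 in STING knockout cells with DNA, 1.14 in wild-type cells with DNA and 1.94 in wild-type cells in media, on the log2 scale. For all genes the same medians were 0.06, 0.10 and 0.01. The 8 genes outside this pattern were Ccnd1, Ccnd2, E2f2, Foxm1, Cdt1, Pcna, Plk1 and Mki67. Signals of other cells' markers, summed over all with a probe set, also varied by number, in part with overlap. For B cell markers, 5 with a probe set and 3 above the filter, they were 166 to 412, 323 to 2337 and 250 to 518 on arrays numbered 1, 2 and 3. These ranges overlap, and the knockout arrays ranged from 166 to 323. For neutrophil markers, 6 of 8 above the filter, they were 41685 to 90694, 16784 to 35753 and 34882 to 44770, and lay apart between numbers 1 and 2 alone. For fibroblast markers, 6 with a probe set and 5 above the filter, they were 4553 to 6197, 663 to 959 and 596 to 3651. There number 1 lay apart from both others. Their part in the cell cycle values was not tested. The median difference of the 38 genes within each number was -0.38, -0.98 and -0.14 for DNA against media in wild-type cells, and 0.86, 0.91 and 0.86 for the knockout against wild type under DNA.

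**Figure D1:**
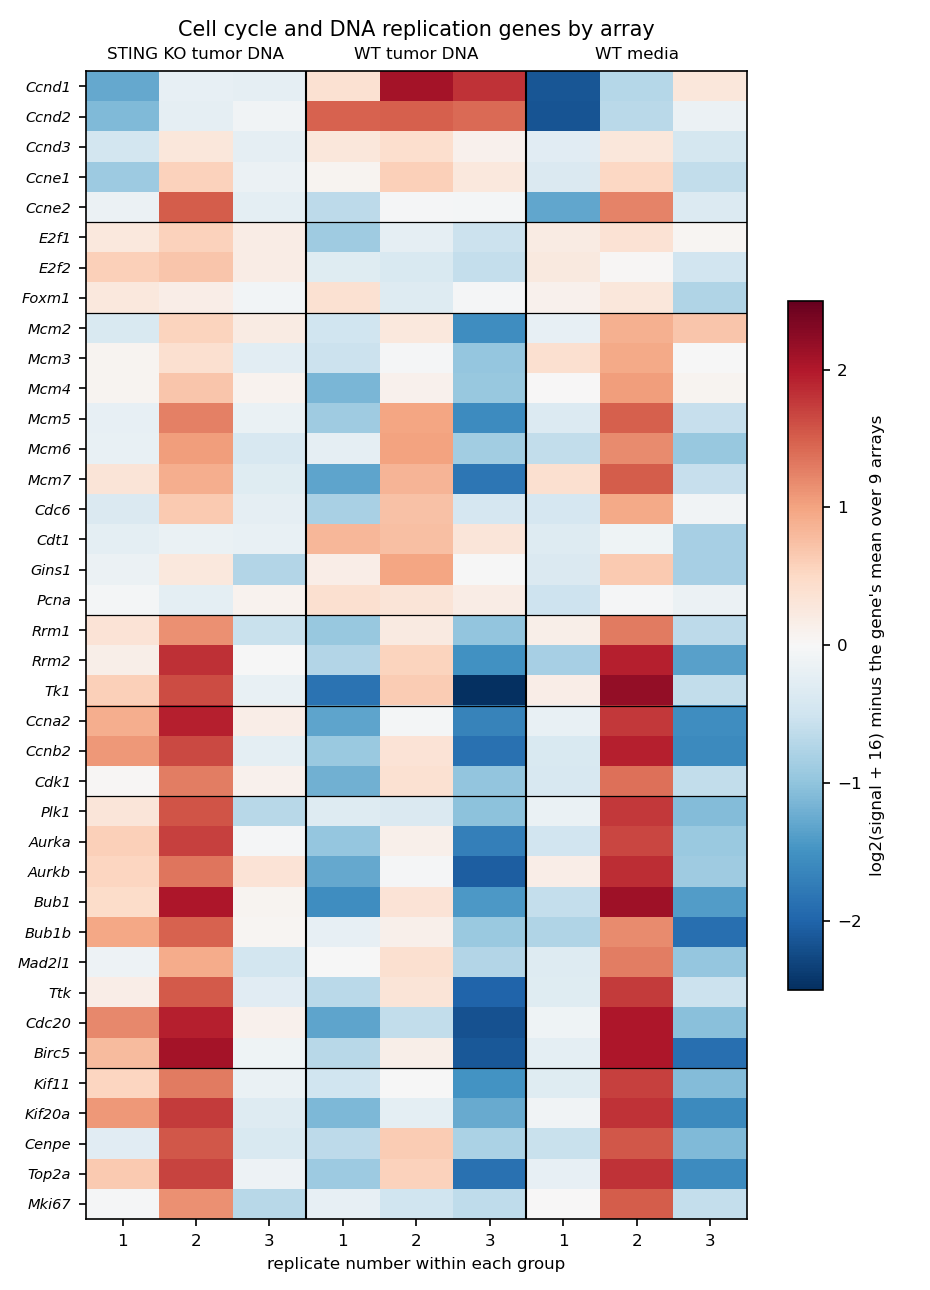
Level of the 38 measured genes on each of the 9 arrays, as log2(signal + 16) minus the gene's mean over the arrays (colour scale in log2 units). Columns are arrays by group and replicate number, and horizontal lines part the role groups. Number 2 is the red column within each group for most genes, and Ccnd1 and Ccnd2 at the top are red in wild-type cells with DNA.

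**Figure D2:**
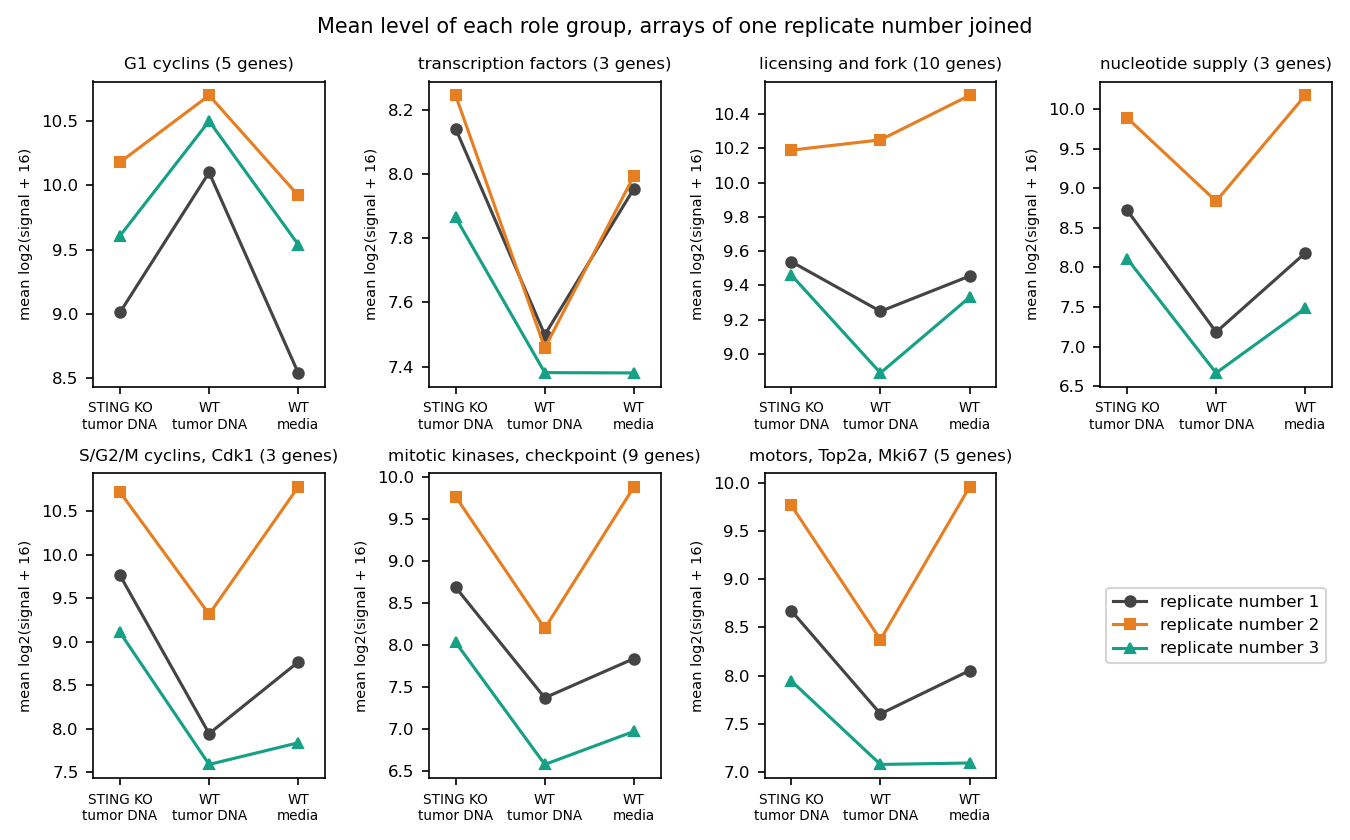
Mean log2(signal + 16) of each role group on each array, with the 3 arrays of one replicate number joined by a line. In the 4 groups of nucleotide supply, S/G2/M cyclins, mitotic kinases and motors, the wild-type DNA array lies below both others of its number, while the G1 cyclins peak in wild-type cells with DNA.

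Of the 5 G1 cyclin genes, Ccnd1 and Ccnd2 were raised with DNA in wild-type cells and were lower in the knockout. The other 3 did not pass the test. Over all genes 9.94% rose with DNA and 9.73% were lower in the knockout. Ccnd2, the cyclin D2 gene, read 3242, 6038 and 6655 in STING knockout cells with DNA, 19646, 19780.3 and 18883 in DNA-treated wild-type cells and 1555, 4385 and 6384 in wild-type cells in media. The wild-type DNA arrays lay within a narrow range above all 6 others. The rise with DNA was 2.46 ± 0.45 (SE over 3 arrays per group, limma adjusted p = 0.0032), or 5.5-fold, and the knockout differed from wild type under DNA by -1.94 ± 0.45 (adjusted p = 0.0093). Ccnd1, for cyclin D1, read 740.0, 1576 and 1541 in STING knockout cells with DNA, against 2376, 7681 and 6389.9 in DNA-treated wild-type cells and 399, 1099 and 2208 in media. All 3 wild-type DNA arrays were above all others, although media array 3 came close to DNA array 1. The rise was 2.28 ± 0.61 (adjusted p = 0.018, with the block 0.00025), and the knockout difference was -1.99 ± 0.61 (0.033, with the block 0.00037). All 3 probe sets of Ccnd1 and all 7 of Ccnd2 moved in these directions, by 2.28 to 2.45 and 2.46 to 3.21 with DNA in wild-type cells.

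Ccnd3, for cyclin D3, read 718, 1212 and 851 in STING knockout cells with DNA, 1212, 1336 and 1067 in DNA-treated wild-type cells and 814, 1217 and 728 in media, with all groups overlapping. It differed by 0.41 with DNA in wild-type cells (95% interval -0.13 to 0.95, adjusted p = 0.22) and by -0.40 in the knockout (-0.94 to 0.14, 0.24). The cyclin E genes, whose products act with Cdk2 at the start of S phase, were measured with intervals that span 0. Ccne1 differed by 0.46 (-0.42 to 1.34) with DNA and by -0.47 (-1.35 to 0.41) in the knockout. For Ccne2 these values were -0.11 (-1.52 to 1.31) and 0.62 (-0.79 to 2.03). With the block and quantile normalization or median centring, Ccnd3 and Ccne1 were called in both comparisons. The Ccnd2 call with DNA held under all alternatives tried, including each left-out array. The Ccnd1 call with DNA ended when media array 1 or either of wild-type DNA arrays 2 and 3 was left out, and its knockout call without wild-type DNA array 2 or 3 or any 1 knockout array (adjusted p up to 0.16 over these and the left-out numbers).

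**Figure D3:**
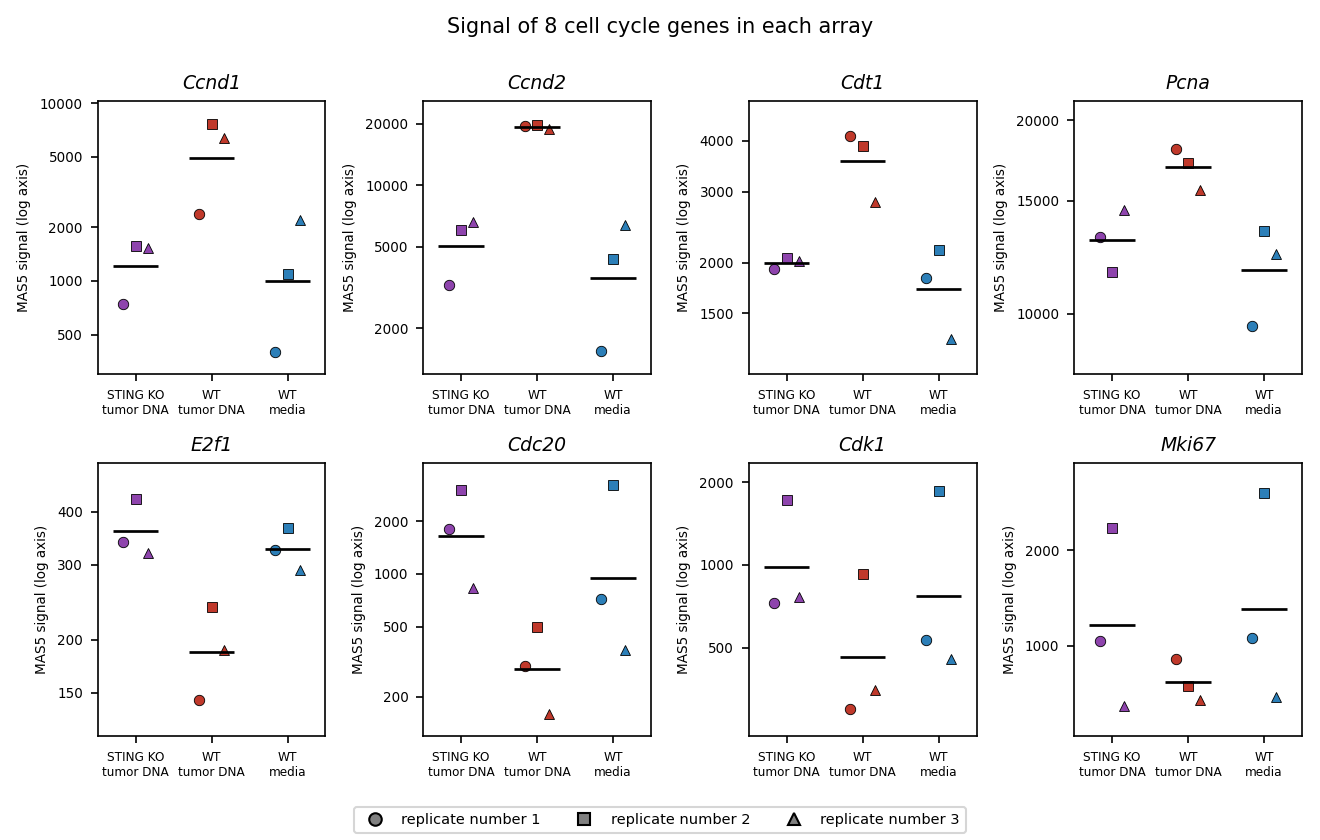
MAS5 signal of 8 genes on each array, on a log axis, with marker shape giving the replicate number and the bar the mean of log2(signal + 16) turned back to signal. Ccnd1, Ccnd2, Cdt1 and Pcna stand highest in wild-type cells with DNA, E2f1 and Cdc20 stand lowest there, and the groups of Cdk1 and Mki67 overlap.

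Among the cell cycle transcription factors, E2f1 was the gene that moved in both comparisons. E2f1, an activator of S phase genes, read 339, 427 and 320.3 in STING knockout cells with DNA, 144, 239 and 189 in DNA-treated wild-type cells and 325, 365 and 292 in media. The wild-type DNA arrays lay below all 6 others. It fell with DNA in wild-type cells, with a difference of -0.75 ± 0.22 (SE over 3 arrays per group, limma adjusted p = 0.024) and was higher in the knockout by 0.89 ± 0.22 (0.012). E2f2, another activator, read 329, 355 and 244 in STING knockout cells with DNA, 171, 159.6 and 135 in DNA-treated wild-type cells and 257, 219 and 149 in media. It was higher in the knockout by 0.92 ± 0.24 (0.016), while its difference with DNA in wild-type cells was -0.36 ± 0.24 (0.27). Foxm1, which drives G2 and mitotic genes, read 168, 154 and 129 in STING knockout cells with DNA, 182, 105 and 133 in DNA-treated wild-type cells and 148, 169 and 75.1 in media, with no order between the groups. It differed by 0.12 (-0.56 to 0.80) with DNA and 0.11 (-0.57 to 0.79) in the knockout. The fall of E2f1 was not called with quantile normalization (adjusted p = 0.10) or median centring, nor without either of media arrays 1 and 2 or wild-type DNA arrays 1 and 3 (up to 0.12). In the knockout the E2f1 call ended without knockout array 2 (up to 0.093), and the E2f2 call with median centring (0.057) and without knockout array 2 or wild-type DNA array 3 (up to 0.13).

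The 10 genes of origin licensing and of the replication fork moved both ways. Cdt1 and Pcna rose with DNA in wild-type cells and Mcm3 fell, and with the block 3 rose and 5 fell. Over all genes 9.94% rose and 23.6% fell, or 13.2% and 31.6% with the block. Cdt1 loads the Mcm helicase onto origins, and it read 1936, 2055 and 2021 in STING knockout cells with DNA, 4114, 3887 and 2832 in DNA-treated wild-type cells and 1834, 2146 and 1294 in media. Every wild-type DNA array was above every other array. Cdt1 rose by 1.04 ± 0.21 (SE over 3 arrays per group, limma adjusted p = 0.0046), or 2.06-fold, and was lower in the knockout by a difference of -0.83 ± 0.21 (0.013), and its other probe set gave 1.05 and -0.73. Pcna, the sliding clamp of DNA polymerases, read 13181, 11601 and 14479.7 in STING knockout cells with DNA, 18028, 17167 and 15568 in DNA-treated wild-type cells and 9568, 13449 and 12408 in media. It rose with DNA by 0.53 ± 0.15 (0.019) and differed by -0.37 ± 0.15 in the knockout (0.077), although in both comparisons the groups did not overlap. Gins1, a helicase cofactor, was called only with the replicate block, at 0.56 ± 0.19 with DNA (0.038, without the block 0.33) and -0.59 ± 0.19 in the knockout (0.033, without the block 0.32). In the blocked fit the Gins1 call with DNA ended without the arrays of any 1 number, and its knockout call without those numbered 2 or 3. The Cdt1 rise held under all alternatives tried, while its knockout difference was not called without the arrays numbered 1 or those numbered 2 (up to 0.097). The Pcna call ended with quantile normalization (0.13), with the block without the arrays numbered 1, and if media array 1 or wild-type DNA array 1 was left out (up to 0.14).

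The helicase genes Mcm2 to Mcm7 encode the ring that unwinds DNA. Mcm3 read 1476, 1879 and 1169 in STING knockout cells with DNA, 973, 1382 and 713 in DNA-treated wild-type cells and 1885, 2736 and 1409.9 in media. Within each replicate number the wild-type DNA array was the lowest, and the differences from media were -0.94, -0.98 and -0.97 for numbers 1, 2 and 3. The fall was -0.96 ± 0.30 (adjusted p = 0.033), and the knockout differed from wild type under DNA by 0.58, at 0.17 without and 0.0044 with the block. Mcm4 read 922, 1437 and 932 in STING knockout cells with DNA, 387, 949 and 447 in DNA-treated wild-type cells and 889, 1831 and 921 in media. Its values were again lowest in wild-type cells with DNA within each number, though the groups overlapped. With the block it fell, with a difference of -1.04 ± 0.15 with DNA (0.00081, without the block 0.057) and was higher in the knockout by 0.95 ± 0.15 (0.0011, without 0.082). The other Mcm4 probe set, nearly as bright, gave smaller differences of -0.50 and 0.36. Mcm7, Mcm5 and Mcm2 differed with DNA by -1.20, -0.68 and -1.05, each called with the block (0.0072, 0.02 and 0.031) and not without it (0.21, 0.50 and 0.11). In the knockout Mcm7 and Mcm5 were higher with the block, at 1.07 and 0.78 (0.013 and 0.012, without 0.27 and 0.45). Mcm2 differed there by 0.71 (with the block 0.12, without 0.27). Mcm6, of the same ring, was not called, with 0.09 (-1.32 to 1.50) with DNA and 0.18 (-1.23 to 1.58) in the knockout, and its interval with the block was -0.32 to 0.50 and -0.23 to 0.58. Cdc6, a loader that works with Cdt1, also was not called in either comparison, at -0.31 (-1.42 to 0.79) and 0.19 (-0.92 to 1.29). The Mcm3 fall without the block was not called with quantile normalization, median centring (0.11) or the mean of its 5 probe sets, nor without either of media arrays 1 and 2 or wild-type DNA arrays 1 and 3 (up to 0.14), and with the block those of Mcm2 and Mcm5 ended under quantile normalization or median centring, as did the knockout calls of Mcm3 and Mcm5 under median centring. In the blocked fit the fall of Mcm2 ended without number 2 or 3, of Mcm5 without 1 or 3 and of Mcm7 without 1, and the knockout calls of Mcm3 and Mcm5 ended without 3, of Mcm7 without 1 or 3, and of Mcm3 with the mean of the probe sets.

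The 3 measured genes of nucleotide supply were lower in wild-type cells with DNA than in the knockout in every replicate number. Over all genes 42.8% were. Tk1, thymidine kinase, read 166, 356 and 90.9 in STING knockout cells with DNA, 17.6, 172 and 4.3 in DNA-treated wild-type cells and 119.8, 535 and 62.9 in media. Wild-type DNA arrays 1 and 3 read close to or below the offset of 16, which limits the size of the difference. With the block Tk1 fell, with a difference of -1.84 ± 0.30 with DNA (0.0015, without the block 0.14) and was higher in the knockout by 1.94 ± 0.30 (0.0011, without 0.13). The ribonucleotide reductase genes Rrm1 and Rrm2 encode the enzyme that makes deoxynucleotides. Rrm1 read 751, 1307 and 395 in STING knockout cells with DNA, 296, 688 and 287 in DNA-treated wild-type cells and 646, 1465 and 367 in media. Rrm2 read 524, 1713 and 468 in STING knockout cells with DNA, 277, 704 and 156 in DNA-treated wild-type cells and 257, 1858 and 174 in media. With the block Rrm1 fell with DNA (-0.83 ± 0.19, 0.007, without 0.28) and was higher in the knockout (0.88 ± 0.19, 0.0054, without 0.26). Rrm2 was called in the knockout comparison with the block (1.21 ± 0.29, 0.0083, without 0.31). It differed by -0.47 with DNA (with the block 0.21, without 0.71), where the difference was -1.38 in number 2 and 0.10 in number 1. In the blocked fit the fall of Rrm1 ended without number 2 and the knockout call of Rrm2 without number 3. Without the block none of the 3 genes was called in either comparison by limma, and none had an unadjusted p under 0.05.

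The 3 measured genes of S, G2 and M phase cyclins and Cdk1 were all higher in the knockout under DNA with the block. With the block 2 of them also fell with DNA in wild-type cells. These shares were 29.9% and 31.6% over all genes. Without the block none was called by limma (1 in the knockout and 0 with DNA at an unadjusted p under 0.05). Ccna2, for the S and G2 cyclin A2, read 830.4, 1736 and 495 in STING knockout cells with DNA, 166, 419.9 and 126 in DNA-treated wild-type cells and 380.4, 1519 and 138 in media. All 3 knockout arrays lay above all 3 wild-type DNA arrays. The knockout difference was 2.02, with an adjusted p of 0.074 without and 0.00072 with the block, and with DNA in wild-type cells it was -1.02 (0.34 and 0.02). Cdk1, the mitotic cyclin-dependent kinase, read 725, 1725 and 764 in STING knockout cells with DNA, 299.9, 927 and 350.4 in DNA-treated wild-type cells and 533, 1857 and 457 in media. The arrays numbered 2 were the highest of each group, and within each number the wild-type DNA array was the lowest. With the block Cdk1 was higher in the knockout by 1.07 ± 0.18 (0.0013, without the block 0.19) and fell with DNA, at -0.72 ± 0.18 (0.0094, without 0.38). Ccnb2, for cyclin B2, read 1033, 1543 and 405 in STING knockout cells with DNA, 244, 616 and 121 in DNA-treated wild-type cells and 365, 1889.6 and 149 in media. It was called in the knockout with the block (1.64 ± 0.31, 0.0027, without 0.18). It was not called with DNA (-0.80, with the block 0.061, without 0.51). With the block and quantile normalization or median centring, the calls of Ccna2 and Cdk1 with DNA in wild-type cells ended, as they did in the blocked fit without number 1 or 2. All 3 knockout calls held under these alternatives and in the blocked fit without any 1 number.

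**Figure D4:**
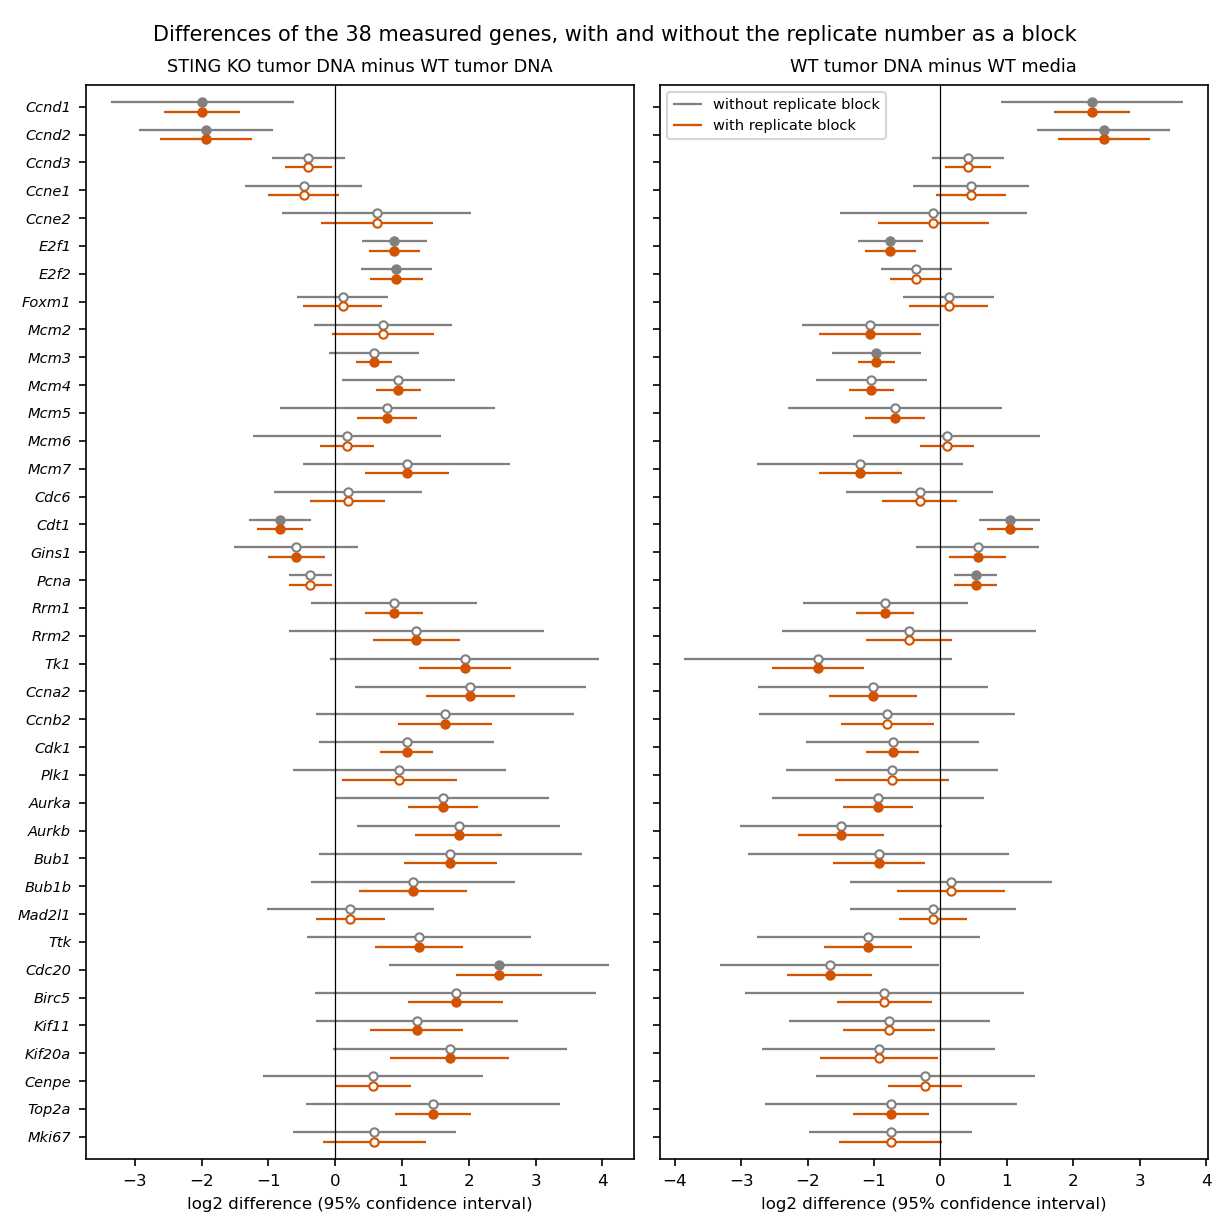
Log2 differences of the 38 genes with 95% confidence intervals, without the replicate block in grey and with it in orange, for STING knockout against wild-type cells under DNA (left) and for DNA against media in wild-type cells (right). Filled points have an adjusted p under 0.05 over all 12586 genes. The intervals narrow with the block for most mitotic genes, while the points stay in place.

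Of the 9 genes of mitotic kinases, spindle checkpoint and mitotic exit, Cdc20 was higher in the knockout in both fits. With the block 7 were higher. Over all genes 21.8% were higher without and 29.9% with the block. Cdc20, the activator of the anaphase-promoting complex, read 1797, 3004 and 835 in STING knockout cells with DNA, 300.0, 498 and 159 in DNA-treated wild-type cells and 720.4, 3192 and 368 in media. The knockout arrays all lay above the wild-type DNA arrays, by 2.52, 2.56 and 2.28 within numbers 1, 2 and 3. The difference was 2.45 ± 0.74 (SE over 3 arrays per group, limma adjusted p = 0.03), or 5.48-fold, and with DNA in wild-type cells Cdc20 differed by -1.67 (0.11, with the block 0.0017). Its other probe set above the filter gave smaller differences of 1.39 and -0.87. Aurkb, the kinase of the chromosomal passenger complex, read 277, 497 and 240.3 in STING knockout cells with DNA, 68.2, 183 and 33.0 in DNA-treated wild-type cells and 213, 718 and 94.3 in media. Its knockout and wild-type DNA arrays did not overlap either in this probe set. In its other probe set above the filter they did overlap, with 206, 368 and 74.2 in the knockout and 68.8, 188 and 60.3 in wild-type cells with DNA. That probe set differed by 0.85 in the knockout and by -1.20 with DNA. By the probe set used, Aurkb was higher in the knockout with the block, by 1.85 ± 0.29 (0.001, without 0.064). With DNA it was lower with the block, by a difference of -1.50 ± 0.29 (0.0031, without 0.12). Aurka, the spindle pole kinase, read 368, 824 and 234 in STING knockout cells with DNA, 114, 264 and 62.4 in DNA-treated wild-type cells and 168, 801 and 118 in media. Its knockout differences were close to each other, 1.56, 1.59 and 1.67. It was called with the block in the knockout (0.00068, without 0.11) and with DNA (-0.94, 0.0096, without 0.34).

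Ttk, a kinase of the spindle checkpoint, read 87.3, 250.5 and 59.5 in STING knockout cells with DNA, 41.9, 98.9 and 6.9 in DNA-treated wild-type cells and 58.4, 292 and 47.4 in media. With the block it was called in the knockout (1.26 ± 0.29, 0.0076, without 0.23) and with DNA (-1.08 ± 0.29, 0.015, without 0.30). Its other probe set differed by 0.09 and -0.21. Both calls ended with the mean of the probe sets, and in the blocked fit without number 2 or 3. The checkpoint kinase gene Bub1 and the survivin gene Birc5, whose product sits in the passenger complex, were higher in the knockout with the block. The differences were 1.73 and 1.80 (0.0021 and 0.0019, without the block 0.16 and 0.17). Bub1 also fell with DNA with the block (-0.93, 0.036, without 0.45). Birc5 differed by -0.85 with DNA (with the block 0.055, without 0.53). Bub1b, for the checkpoint protein BubR1, was higher in the knockout with the block (1.17, 0.027, without 0.22). However, 1 of its 3 probe sets differed by -0.11. Plk1, the polo kinase of mitotic entry, differed by 0.96 (-0.64 to 2.56) in the knockout and -0.73 (-2.33 to 0.86) with DNA. Mad2l1, for the checkpoint protein Mad2, differed by 0.22 (-1.03 to 1.48) and -0.11 (-1.36 to 1.14). Neither of these genes was called in either fit. With the block and median centring, the falls of Aurka, Bub1 and Ttk with DNA and the knockout call of Bub1b ended, and that of Bub1 with DNA ended with quantile normalization too. In the blocked fit the fall of Aurka ended without number 2 and of Bub1 without 1 or 2, and the knockout call of Bub1b ended without 1 or 3. Without the block none of the 9 genes was called with DNA in wild-type cells by limma (1 at an unadjusted p under 0.05). The Cdc20 call without the block ended with quantile normalization or the mean of its 2 probe sets (0.056), and without wild-type DNA array 1 or 3 or knockout array 1 or 2 (up to 0.14).

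Motor and chromosome genes were higher in the knockout with the block in 3 of 5 cases (29.9% of all genes were). Top2a, topoisomerase II of condensing chromosomes, read 1021, 2109.9 and 588 in STING knockout cells with DNA, 336, 968 and 166 in DNA-treated wild-type cells and 558, 2296 and 207 in media. Kif20a, a motor of cytokinesis, read 295, 474 and 101 in STING knockout cells with DNA, 50.9, 107 and 45.0 in DNA-treated wild-type cells and 122, 498 and 32.8 in media. Kif11, the motor that builds the bipolar spindle, read 223, 390.5 and 132 in STING knockout cells with DNA, 102, 148 and 42.9 in DNA-treated wild-type cells and 118, 526 and 61.8 in media. In each of these genes, within each number, the knockout array was above the wild-type DNA array. With the block the knockout differences were 1.47 ± 0.25 (0.0016) for Top2a, 1.72 ± 0.39 (0.0072) for Kif20a and 1.22 ± 0.31 (0.011) for Kif11. Without it their limma adjusted p was 0.22, 0.12 and 0.20. With the block Top2a also fell with DNA in wild-type cells (-0.74, 0.038, without 0.54). That call ended with quantile normalization or median centring and without number 1 or 2. Kif20a and Kif11 differed by -0.93 and -0.77 with DNA (0.085 and 0.069 with the block, 0.39 and 0.41 without). The knockout call of Kif20a ended without number 1 and of Kif11 without number 3. Mki67, for the proliferation marker Ki-67, read 1032, 2349 and 642 in STING knockout cells with DNA, 905, 743 and 673 in DNA-treated wild-type cells and 1058, 3029.6 and 686 in media. Its differences were -0.22, -2.00 and -0.03 with DNA and 0.19, 1.64 and -0.07 in the knockout for numbers 1, 2 and 3, and were largest on arrays numbered 2. It was not called, at -0.75 (-1.98 to 0.47, 0.32, with the block 0.10) and 0.59 (-0.64 to 1.81, 0.45, with the block 0.20). Cenpe, a kinetochore motor, differed by -0.23 (-1.87 to 1.42) and 0.57 (-1.07 to 2.21). Without the block none of the 5 was called in either comparison by limma, and none had an unadjusted p under 0.05.

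Counting each replicate number by itself, 22 of the 38 genes were lower with DNA than in media in all 3 numbers (44.3% of all genes were) and 7 were higher in all 3 (23% of all genes). In the knockout against wild type under DNA, 26 were higher in all 3 numbers (42.8% of all genes) and 7 lower (22% of all genes). Groups did not overlap in 4 genes that were higher and 2 that were lower with DNA (15% and 31.4% of all genes), and in 5 that were higher and 4 that were lower in the knockout (31.3% and 14.7%). Without the block the count of falls with DNA depended on single arrays. It was 0 without either of media arrays 1 and 2 or wild-type DNA arrays 1 and 3 (at an unadjusted p under 0.05, 4, 2, 2 and 2 genes), 6 without wild-type DNA array 2 and 4 without media array 3, and the median of the set was 0.08 without media array 2. The count of genes higher in the knockout was 0 without knockout array 2 (3 at an unadjusted p under 0.05), 1 without wild-type DNA array 3, 7 without wild-type DNA array 2, and 6 and 5 without media array 2 and 3, while the count of rises with DNA was 2 without media array 1. With the block and without the arrays of 1 number, 8 to 15 genes fell with DNA and 15 to 21 were higher in the knockout.

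Markers of other cells differed between the groups as well, in part only with the block. Of 8 markers of myeloid progenitors, all above the filter, 2 were lower in STING knockout than in wild-type cells with DNA, and 6 with the block, with 1 higher. Their summed signal was 641 to 875 in STING knockout cells with DNA, 945 to 2052 in wild-type cells with DNA and 800 to 1848 in wild-type cells in media. Mpo, myeloperoxidase, read 99.5, 139.8 and 112 in the knockout, 389, 224 and 207 in DNA-treated wild-type cells and 445, 279.8 and 167 in media. It is outside the naming rule and was 1 of 7 progenitor markers with lower means in the knockout under DNA. The remaining marker of the 8 was higher there, by 1.22. All 3 B cell markers above the filter were lower in the knockout under DNA with the block. Without it 0 were called (smallest limma adjusted p 0.11). Of the 6 neutrophil markers above the filter, 2 were lower in the knockout under DNA with the block and 0 without it. Of the 5 fibroblast markers above the filter, 1 was higher with the block and 0 without it (median difference 0.92). Of the 11 dendritic cell markers above the filter, 1 was higher, and with the block 1 was higher and 3 were lower. Of all genes, 21.8% were higher and 9.73% lower in the knockout under DNA, and 29.9% and 13% with the block. The part of these cells in the cell cycle values was not tested.

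Between STING knockout cells with DNA and wild-type cells in media, no gene of the 38 passed the test. With limma 0 genes were called without the block (1 at an unadjusted p under 0.05, smallest adjusted p 0.64). With the block 0 were called (11 at an unadjusted p under 0.05, smallest adjusted p 0.14). Over all 12586 genes, 948 without and 1701 with the block had an unadjusted limma p under 0.05. Over all genes 0.167% were called higher and 0.262% lower, and 0.683% and 0.715% with the block. In 0 genes of the set did the groups not overlap, where 5.93% of all genes lay apart and higher and 7.88% apart and lower. The median difference of the set was 0.25, and 0.42, -0.12 and 0.48 within numbers 1, 2 and 3. For Cdc20 the difference was 0.79, with an interval of -0.86 to 2.44 without and 0.15 to 1.43 with the block. For Bub1b it was 1.32 (-0.20 to 2.84 without and 0.51 to 2.13 with the block), and for Ccna2 1.01 (-0.73 to 2.74 and 0.34 to 1.67). The blocked intervals of these 3 genes, which are not adjusted for the number of genes, lay above 0. Their adjusted p with the block was 0.26, 0.14 and 0.17. In the blocked fit 10 of the 38 genes were higher and 1 lower at an unadjusted limma p under 0.05. The lower one was Mcm3, at -0.385 (-0.66 to -0.11). For Mki67 the difference was -0.16 (-1.39 to 1.06 and -0.94 to 0.61). Ccnd2 differed by 0.52 (-0.48 to 1.52 and -0.17 to 1.22) and Cdt1 by 0.22 (-0.24 to 0.68 and -0.13 to 0.57). Because the groups differ in genotype as well as in DNA, this comparison does not isolate either.

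Genes that restrain the cycle included some that rose with DNA and some that differed in the knockout in either direction. Of 7 measured genes for inhibitors of cyclin-dependent kinases, 2 rose with DNA (2 rose and 1 fell with the block) and, in the knockout under DNA, 2 were higher and 4 lower (3 and 4 with the block). That is 28.6% rising and 0% falling, against 9.94% and 23.6% of all genes. With the block it is 28.6% and 14.3%, against 13.2% and 31.6%. In the knockout 28.6% were higher and 57.1% lower, against 21.8% and 9.73% of all genes. With the block these were 42.9% and 57.1%, against 29.9% and 13%. Cdkn1a, for the p53-induced inhibitor p21, read 6202, 6830.0 and 8524 in STING knockout cells with DNA, 12750.0, 12048 and 16942 in DNA-treated wild-type cells and 3848, 4736 and 9128 in media. It rose with DNA by 1.32 ± 0.29 (limma adjusted p = 0.007) and was lower in the knockout by a difference of -0.95 ± 0.29 (0.03, 0.094 with quantile normalization). Cdkn2d, for p19, an inhibitor of Cdk4 and Cdk6, likewise rose by 0.75 ± 0.22 (0.027) and differed by -0.88 ± 0.22 in the knockout. Cdkn1b, for p27, was higher in the knockout by 0.78 ± 0.17 (0.0065, 0.34 with the mean of its probe sets) and differed by -0.30 with DNA. Cdkn2c, for p18, read 1043, 1059 and 463 in STING knockout cells with DNA, 236, 283 and 117 in DNA-treated wild-type cells and 902, 1056 and 244 in media. It was higher in the knockout by 1.92 ± 0.55 (0.024) and differed by -1.56 ± 0.55 with DNA (0.052), a fall called with the block (0.00051). This is a gene outside the naming rule that was chosen after its values were seen. Cdkn2a and Cdkn2b, for p16 with p19Arf and for p15, were lower in the knockout than in both wild-type groups. Cdkn2a read 67.7, 103 and 131 in STING knockout cells with DNA, 576, 1104 and 775 in DNA-treated wild-type cells and 447, 1146 and 881 in media, with a knockout difference of -2.83 ± 0.37 under DNA (0.00061) and -2.79 ± 0.37 against media (0.01, not called without knockout array 2 or media array 3, up to 0.52). Cdkn2b differed by -1.46 ± 0.32 in the knockout under DNA (0.0076). Without 1 array, the calls of Cdkn1a in the knockout ended without wild-type DNA array 1 or 3 or knockout array 1 or 2 (up to 0.12), those of Cdkn2d with DNA without media array 1, media array 3 or any wild-type DNA array (up to 0.21) and in the knockout without knockout array 3 (up to 0.15), and that of Cdkn2c without wild-type DNA array 1 or 3 or knockout array 1 or 2 (up to 0.11).

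**Figure D5:**
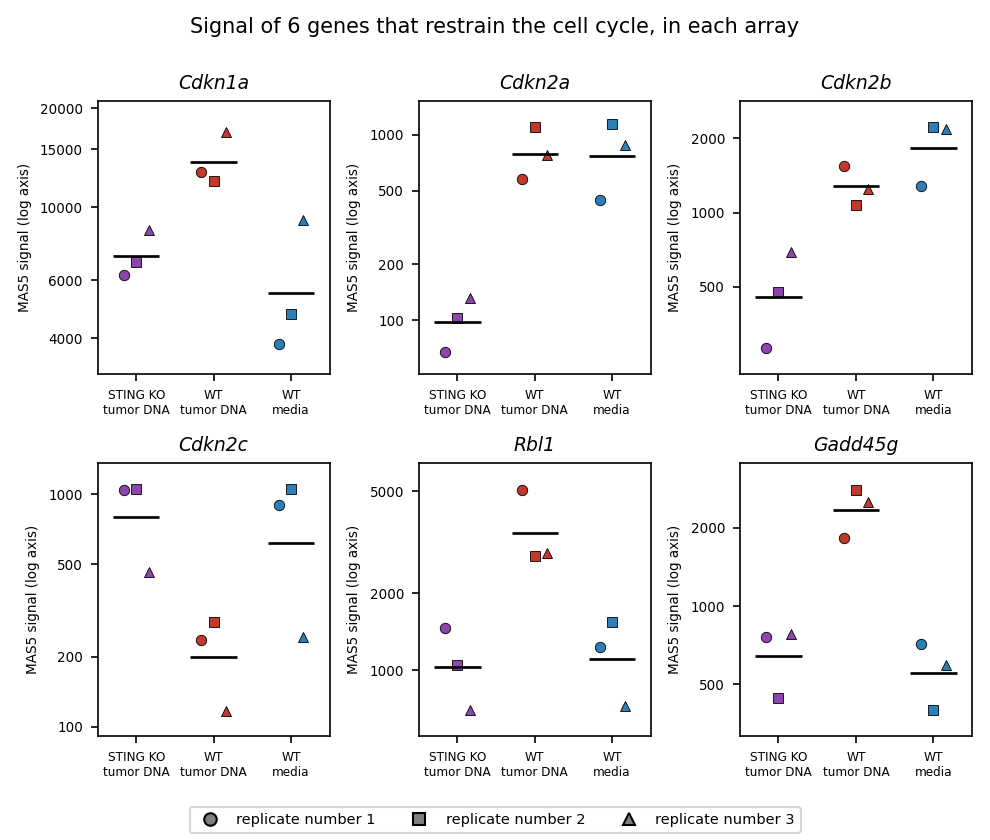
MAS5 signal of 6 genes that restrain the cell cycle on each array, on a log axis, with marker shape giving the replicate number and the bar the mean of log2(signal + 16) turned back to signal. Cdkn1a, Rbl1 and Gadd45g stand highest in wild-type cells with DNA, Cdkn2c lowest there, and Cdkn2a and Cdkn2b lowest in STING knockout cells.

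Of 18 other genes of the G1 kinases, retinoblastoma family and E2F factors, 2 rose and 6 fell with DNA (3 and 9 with the block), and 8 were higher and 2 lower in the knockout under DNA (9 and 3 with the block). That is 11.1% rising and 33.3% falling, against 9.94% and 23.6% of all genes. With the block it is 16.7% and 50%, against 13.2% and 31.6%. In the knockout 44.4% were higher and 11.1% lower, against 21.8% and 9.73% of all genes. With the block these were 50% and 16.7%, against 29.9% and 13%. E2f6, a repressing E2F factor, fell, with a difference of -1.58 ± 0.25 (0.0018) and was higher in the knockout by 1.93 ± 0.25 (0.0006). Cdk4, the kinase partner of D cyclins, read 1599, 2010.4 and 1932 in STING knockout cells with DNA, 623, 841 and 886 in DNA-treated wild-type cells and 1306, 1992 and 1759 in media. With DNA in wild-type cells and in the knockout it differed by -1.08 ± 0.20 and 1.23 ± 0.20 (0.0037 and 0.0018). Rb1 and Rbl2 fell with DNA, at -0.79 and -1.22, while Rbl1, for the p107 protein, rose by 1.62 ± 0.35 (0.007) and was lower in the knockout by a difference of -1.73 ± 0.35 (0.0049). Myc, named whatever its result, read 843, 1460.0 and 1404 in STING knockout cells with DNA, 387, 706 and 478 in DNA-treated wild-type cells and 529, 1162 and 1062 in media. It was higher in the knockout by 1.22 ± 0.34 (0.022, not called with quantile normalization or median centring, up to 0.059, or without wild-type DNA array 1 or 3 or knockout array 2 or 3, up to 0.20) and differed by -0.76 with DNA (0.12, with the block 0.0049). With quantile normalization 4 and with median centring 3 genes of this list were higher in the knockout, against the 8 above.

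Replication and mitosis genes outside the 40 had lower means in wild-type cells with DNA than in media in 31 of 37 and 40 of 43 cases, against 61.2% of all genes. Of the 37 genes of replication and repair synthesis, 1 rose and 8 fell with DNA (2 and 17 with the block), and 7 were higher and 1 lower in the knockout (21 and 1 with the block). That is 21.6% lower with DNA and 18.9% higher in the knockout without the block, against 23.6% and 21.8% of all genes, and 45.9% and 56.8% with it, against 31.6% and 29.9%. With quantile normalization or median centring 4 fell with DNA and 3 were higher in the knockout, and with the block added 13 and 14 fell and 12 and 10 were higher. The origin recognition gene Orc5 fell, with a difference of -1.31 ± 0.23 (0.0031), the clamp loader gene Rfc1 at -0.86 ± 0.17 (0.0043) and the polymerase delta subunit gene Pold2 at -1.13 ± 0.23 (0.0052). In the knockout Orc5 and Pold2 were higher by 1.20 ± 0.23 and 1.01 ± 0.23 (0.0042 and 0.0087). Rfc3, another clamp loader subunit, ran the other way, with a rise of 0.89 with DNA and a knockout difference of -1.13 ± 0.22 (0.0036). Of the 43 genes of mitosis and cytokinesis, 2 rose and 1 fell with DNA (2 and 26 with the block), and 9 were called in the knockout, each higher (37 higher and 1 lower with the block). Without the block that is 4.65% rising and 2.33% falling, against 9.94% and 23.6% of all genes. The share higher in the knockout was 20.9%, against 21.8% of all genes. With the block 60.5% fell and 86% were higher in the knockout, against 31.6% and 29.9%. Cdca8, a subunit of the passenger complex beside Aurkb and Birc5, read 1521, 2660.5 and 1010.3 in STING knockout cells with DNA, 309, 879 and 289 in DNA-treated wild-type cells and 1011, 2807 and 681 in media. It was higher in the knockout by 1.86 ± 0.57 (0.034), as were the phosphatase Cdc25b by 1.54 ± 0.39 (0.014) and the centromeric histone Cenpa by 1.46 ± 0.40 (0.02). The rises with DNA were the securin gene Pttg1 at 1.29 ± 0.37 (0.023) and the spindle assembly gene Tpx2 at 1.75 ± 0.58 (0.041), and the fall was the motor gene Kif18a at -1.81 ± 0.58 (0.035). Each of these 3 calls ended without any of several single arrays, wild-type DNA array 2 and media array 1 among them (up to 0.27). Those of Cdc25b, Cenpa and Cdca8 ended without knockout array 2, and the last 2 also without wild-type DNA array 1 or 3 (up to 0.17). With median centring 2 mitosis genes were called in the knockout, each higher, and 28 were higher with the block and this centring.

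Of 13 measured antiproliferative and checkpoint genes, 5 rose and 1 fell with DNA (5 and 3 with the block), and 1 was higher and 5 lower in the knockout under DNA (2 and 5 with the block). That is 38.5% rising and 7.69% falling, against 9.94% and 23.6% of all genes. With the block it is 38.5% and 23.1%, against 13.2% and 31.6%. In the knockout 7.69% were higher and 38.5% lower, against 21.8% and 9.73% of all genes. With the block these were 15.4% and 38.5%, against 29.9% and 13%. Mdm2, the ubiquitin ligase that limits p53, read 2558, 2553 and 2292 in STING knockout cells with DNA, 7191, 4820.4 and 6481 in DNA-treated wild-type cells and 1885, 2106 and 2396 in media. It rose by 1.51 ± 0.17 (0.00043) and differed by -1.30 ± 0.17 in the knockout (0.00062). Gadd45g, a stress gene that slows division, rose by 2.05 ± 0.28 (0.00096) and differed by -1.84 ± 0.28 in the knockout (0.0013). Chek2, the checkpoint kinase that acts on double-strand breaks, fell, with a difference of -1.80 ± 0.25 (0.00096) and was higher in the knockout by 1.76 ± 0.25 (0.00088). These 6 calls held under all alternatives tried.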

How the data were processed

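Messenger RNA was measured on 9 Affymetrix arrays, 3 per group, 1 sample each. The deposited values are MAS5 signal intensities on a linear scale, which the authors had scaled per array, per the submitters' processing notes and the values, whose trimmed mean (2 to 98%) is 499.8 on each array. The MAS5 version is not given in the sources used here, and the number of arrays limits the precision. From these values log2(signal + 16) was taken, which understates changes of dim genes. After removal of 64 control probe sets of 45101, those with a mean above the percentile 40 (5.67) were kept, 27022 in all, of which 22792 had 1 gene symbol. The brightest stood for each of 12586 genes. Groups were compared with limma 3.58.1 (lmFit, eBayes with intensity trend) in R 4.3.3, over all 9 arrays, with Benjamini-Hochberg adjustment over all genes. The threshold for a call was an adjusted p under 0.05, and intervals are 95% intervals of the fit. At an unadjusted limma p under 0.05, 5548 of all 12586 genes passed for DNA against media, or 6623 with the block. For the knockout against wild type under DNA these counts were 5368 and 6396.

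Sample titles give replicate numbers. Residuals of same-numbered arrays correlated in all 9 pairs (r 0.17 to 0.49 over genes, against -0.42 to 0.14 for different numbers), so the numbers were taken to pair the arrays. Residuals cancel out within a group, so positive values for same numbers push those for different numbers down. The ranges are therefore not independent of each other, and the block was chosen from the same values it was then used on. Blocked values stand beside unblocked ones where the block changes the call of a gene whose adjusted p is given. They also stand beside most counts of calls. Both fits were tried once on simulated data for DNA against media with 12586 genes. Log2 changes of 1 and 2 were given to 87 and 113 genes with paired arrays, and to 94 and 106 with independent arrays. In the measured data 4224 genes were called for this comparison, so the simulated rates need not hold there. With paired arrays, the blocked fit recovered 42.5% of log2 changes of 1 and 76.1% of changes of 2, and the unblocked fit 19.5% and 72.6%. With independent arrays the blocked fit recovered 22.3% and 68.9%, and the unblocked fit 33% and 78.3%. False calls numbered 2 and 3 with the block for paired and independent arrays, and 0 and 1 without it. The paired case used number effects fitted to these same arrays, so it cannot show whether the numbers do pair them.

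All members are named. Values per array are given for the 3 members of each role group with the smallest adjusted p in DNA against media and in knockout against wild type under DNA, and for Mki67, Cdk1, Ccnd1, Ccnd2, Ccnd3 and E2f1. From the other lists the 3 called genes with the smallest adjusted p per comparison are named, with Cdkn1a, Cdkn1b and Myc. The members and lists were chosen with earlier results of these data known. Alternatives were offsets of 64 and 0, no filter, quantile normalization, median centring, no intensity trend, the mean of a gene's probe sets, the block and left-out arrays.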

Additional observations from a re-analysis of the deposited data

How the results depend on the processing

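The counts and medians of the 38 genes were recomputed under each alternative. Blocked fits combined with another normalization, with the mean of the probe sets or with a left-out number were added after seeing the data. The cause of the changes was not tested. With DNA against media in wild-type cells, rises numbered 4 and were 2 to 4 with arrays left out. With the block and median centring they were 7 (22.1% of all genes). Falls numbered 2, and were 0 with quantile normalization or median centring, 1 with the mean of the probe sets and 0 to 6 with arrays left out. With the replicate block they were 16 (31.6% of all genes). With quantile normalization added they were 10 (25.5%), with median centring 8 (17.4%) and with the mean of the probe sets 15 (29.5%). Without the arrays numbered 1, 2 and 3 the blocked falls were 10, 8 and 15 (21.7%, 25.4% and 21.4%). The median was -1.10 to 0.078 with arrays left out, positive without media array 2 (0.078). In the knockout against wild type under DNA, 3 genes were higher and 0 to 11 with arrays left out. With the replicate block they numbered 22 (29.9% of all genes). With quantile normalization added they numbered 22 (24.8%), with median centring 19 (17.9%) and with the mean of the probe sets 21 (27.9%). Without numbers 1, 2 and 3 the blocked counts were 19, 21 and 15 (22.3%, 23.5% and 19.3%). Lower genes numbered 3, against 0 to 4 with arrays left out. With the block and quantile normalization or median centring they were 6 and 7 (14.5% and 19.6% of all genes). The median of 0.90 was 0.76 with an offset of 64, 0.96 with an offset of 0, 0.66 with quantile normalization, 0.64 with median centring, 0.74 with the mean of the probe sets, with or without the block in the last 3 cases, and 0.82 and 0.98 in the blocked fit without numbers 1 and 3. It was 0.56 to 1.21 with arrays left out. For the knockout against media, no gene of the 38 was called by limma in any alternative, and the median of 0.25 was -0.11 to 0.82 with arrays left out, negative without media array 3 (-0.11) or knockout array 2 (-0.02). Over all genes, 4224, 3970 and 54 were called for DNA against media, knockout against wild type under DNA and knockout against media, and 1489 to 4209, 1368 to 3930 and 4 to 129 with arrays left out. For the last comparison the block gave 176, with quantile normalization 194, with median centring 157, with the mean of the probe sets 152, and without numbers 1 and 3 it gave 259 and 15. The knockout call of Ccnd2 ended only without all arrays numbered 2 (adjusted p = 0.066). No gene named in the text as called without the block changed sign under any alternative, while among those called only with it Bub1 and Top2a had positive differences with DNA without media array 2.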

Other observations

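Probe sets of one gene did not always move alike. Beyond the probe sets used, 39 others of 24 genes passed the filter, and 35 had the same sign with DNA in wild-type cells and 4 the opposite one, while 37 and 2 did in the knockout under DNA. For Foxm1 the other probe set above the filter differed by -1.01 in the knockout under DNA and 0.56 with DNA in wild-type cells, against 0.11 and 0.12 for the one used. For Kif11 the dimmest of 3 probe sets differed by 0.42 with DNA in wild-type cells, against -0.77 for the one used, and for Ccnd3 a dim probe set differed by -0.43 against 0.41.

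Of 7 measured macrophage markers, 2 rose and 1 fell with DNA in wild-type cells and, in the knockout under DNA, 1 was higher and 2 lower. With the block 3 rose and 2 fell, and 2 were higher and 2 lower. Of all genes, 9.94% rose and 23.6% fell with DNA, and 21.8% were higher and 9.73% lower in the knockout. With the block these shares were 13.2% and 31.6%, and 29.9% and 13%. Of 2 erythroid markers above the filter none was called by limma in either comparison, with or without the block, and none had an unadjusted p under 0.05. Cdkn2a and Cdkn2b, neighbours in the RefSeq gene table, were the only genes of the 5 lists outside the 40 that were called between STING knockout cells with DNA and wild-type cells in media, at -2.79 and -1.98 (limma adjusted p = 0.010 and 0.033, both up to 0.52 with arrays left out).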
